A study of Homo sapiens with 4 samples.

Results

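The genes described here are 40 targets and components of NF-kB signalling, chemokines, interleukins and acute-phase products, chosen by name. They were chosen with earlier results of these data known. Of these, 37 had a probe with exactly 1 gene symbol and were measured, among 18377 genes in all. CCL15, SAA4 and BIRC3 had none, so their levels are not analysed here, and they enter only the promoter counts. Huh7 is an established human hepatocellular carcinoma line. It was separated by flow cytometry into CD133-positive (CD133+) and CD133-negative (CD133-) cells, and in another sort into ALDH-positive (ALDH+) and ALDH-negative (ALDH-) cells. CD133 is the surface protein made from PROM1, and ALDH stands for aldehyde dehydrogenase. The series sets these fractions against each other as cancer stem cells and other tumour cells; no fraction carried a named treatment or genetic change, and all came from the same line. RNA of each fraction was measured on 1 Affymetrix array, 4 arrays in all, so no difference below has a replicate check or a p-value.

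NF-kB is a family of transcription factor dimers that inhibitor proteins hold in the cytoplasm. Signals from the receptors of interleukin-1, of tumour necrosis factor and of microbial products destroy the inhibitor, and the freed dimer enters the nucleus and switches on chemokines, cytokines, survival genes and its own inhibitors. In liver cells, interleukin-6 acting through STAT3 adds the acute-phase response, the secretion of plasma proteins such as C-reactive protein and serum amyloid A. Hepatoma lines are widely used to study that response.

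Values are log2 expression levels, and a difference is always the level in the positive fraction minus that in the negative fraction of the same sort. A gene was taken as above the floor in a sort where its brighter array reached 4.98, the median of all values. PROM1 was 12.8-fold higher in CD133+ than in CD133- cells, so its transcript followed the label of that sort. It was 7.11 in ALDH+ and 8.39 in ALDH- cells, and the ALDH labels were not checked by a transcript. All 8 hepatocyte and hepatoma markers were above the floor in both sorts, with median differences of -0.09 and -0.06. In the CD133 sort 1 of the 8 was at least 1.5-fold higher, the thyroxine carrier TTR (0.99), and the apolipoproteins APOA1 (-0.78) and APOB (-0.69) were lower; in the ALDH sort none passed, TTR being at -0.58. The leukocyte-wide marker PTPRC lay between 2.45 and 2.64, below 4.98 on all arrays. Of 12 measured leukocyte markers, though, 4 reached the floor: LYZ, CD68, CD14 and NKG7. Correlations between arrays over all probes ran from 0.982 to 0.989.

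A stretch of chromosome 4 carries 6 chemokine genes of the list that recruit neutrophils through the receptors CXCR1 and CXCR2, with CXCL10 further along. Their promoters are shown because all 6 hold a match to an NF-kB motif close to the start of transcription, while their differences in the ALDH sort had both signs. The sequences are from RefSeq on GRCh38.p14, 60 bases each, 5′ to 3′ on the strand of the gene. They run from position -100 to position -41 relative to the start of transcription, and for CXCL10 they begin at -200. Capitals mark matches of the motif GGNNTTTCC on either strand, where N is any base.
CXCL8, plus strand, chr4:73740469-73740528: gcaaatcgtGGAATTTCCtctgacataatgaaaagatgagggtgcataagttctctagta
CXCL6, plus strand, chr4:73836578-73836637: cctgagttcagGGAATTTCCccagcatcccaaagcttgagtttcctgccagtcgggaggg
CXCL1, plus strand, chr4:73869293-73869352: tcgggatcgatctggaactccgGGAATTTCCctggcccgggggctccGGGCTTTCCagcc
CXCL5, minus strand, chr4:73998718-73998777: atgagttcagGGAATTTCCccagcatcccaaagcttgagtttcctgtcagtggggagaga
CXCL3, minus strand, chr4:74038730-74038789: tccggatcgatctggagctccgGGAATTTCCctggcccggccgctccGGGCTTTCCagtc
CXCL2, minus strand, chr4:74099236-74099295: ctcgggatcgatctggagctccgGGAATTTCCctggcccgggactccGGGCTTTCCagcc
CXCL10, minus strand, chr4:76023638-76023697: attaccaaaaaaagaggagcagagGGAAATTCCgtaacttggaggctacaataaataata

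The 9 bases GGAATTTCC stood in all 6 neutrophil chemokine promoters, beginning between positions -91 and -77, and CXCL1, CXCL3 and CXCL2 shared another match that began at -53. Aligned on the first match with no gap, CXCL1 and CXCL3 were identical at 53 of 59 bases and CXCL1 and CXCL2 at 47 of 59. Of the 40 listed genes, 33, with CCL15, SAA4 and BIRC3 among them, had at least 1 promoter in the RefSeq table; CXCL16, CCL2, CCL5, IL18, RELB, SAA1 and PI3 had none. In the 250 bases before the start site, 19 of the 33 (57.6%) held GGNNTTTCC in at least 1 promoter, against 6.69% of 27305 genes in the table. The looser motif GGGNNNTTC, whose matches can overlap those of the other, was held by 18 of 33 (54.5%), against 15.9% of all genes. The list holds NF-kB targets by choice, so shares above those of all genes are no independent result. A match is a string of letters and says nothing about binding in these cells.

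The next promoters are those of the inhibitor gene NFKBIA, the deubiquitinase gene TNFAIP3, the NF-kB subunit gene REL and IL6, shown since these are textbook feedback and target genes whose levels are set beside the chemokines below. They cover positions -100 to -41, and -80 to -21 for REL, with the same motif in capitals.
NFKBIA, minus strand, chr14:35404790-35404849: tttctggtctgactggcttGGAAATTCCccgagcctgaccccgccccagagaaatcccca
TNFAIP3, plus strand, chr6:137867159-137867218: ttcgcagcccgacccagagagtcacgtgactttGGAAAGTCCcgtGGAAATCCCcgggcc
REL, plus strand, chr2:60881494-60881553: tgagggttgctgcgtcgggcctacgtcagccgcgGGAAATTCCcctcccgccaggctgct
IL6, plus strand, chr7:22727100-22727159: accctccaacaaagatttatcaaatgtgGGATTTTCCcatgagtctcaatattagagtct

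In CD133+ cells a few secreted products stood out, led by the elastase inhibitor PI3 and the cytokine IL18, while the NF-kB subunits and feedback genes differed little. The floor was reached by 28 members in this sort, and 5 of them (17.9%) passed 1.5-fold on the higher side, where 2.74% of 11591 genes did. None of the 28 was at least 1.5-fold lower, against 1.89% of all genes. At 2-fold, 2 of the 28 were higher, against 0.716%, and 0 were lower, against 0.164%. The 5 were PI3, IL18, CXCL8, CXCL5 and SAA1. In this sort PI3 and CXCL8 reached the floor only in CD133+ cells, where they were high. With dim values raised to the floor 4 of the 5 stayed past 1.5-fold, without CXCL8. The list was chosen with earlier results of these data known, so these shares are a description and not a test. Since the fractions were measured in bulk, fewer cells that make a transcript and less of it per cell cannot be told apart.

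In ALDH+ cells IL18 was the member with the largest difference and was lower, and chemokines went both ways. Here 27 members reached the floor, and 2 of them (7.41%) were higher in ALDH+ cells by 1.5-fold or more, against 4.15% of 11879 genes. At least 1.5-fold lower were 5 of 27 (18.5%), against 6.6% of all genes. At 2-fold, 0 members were higher, against 0.278%, and 1 was lower, against 1.3%. CXCL10 and CXCL1 were the 2 higher, and IL18, CXCL16, TNFSF10, REL and CXCL3 the 5 lower. Of these CXCL3 reached the floor only in ALDH- cells, where it was higher. These shares, too, describe a list chosen with earlier results known. The median difference over the members above the floor was 0.11 in the CD133 sort, where all genes above the floor had -0.04, and -0.08 in the ALDH sort, where all genes had -0.01. Over all 37 measured members the medians were 0.115 and 0.081, and over all 18377 genes -0.006 and 0.029. In the ALDH sort the sign thus depended on whether dim genes were counted, for the members and for all genes alike.

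**Figure D1:**
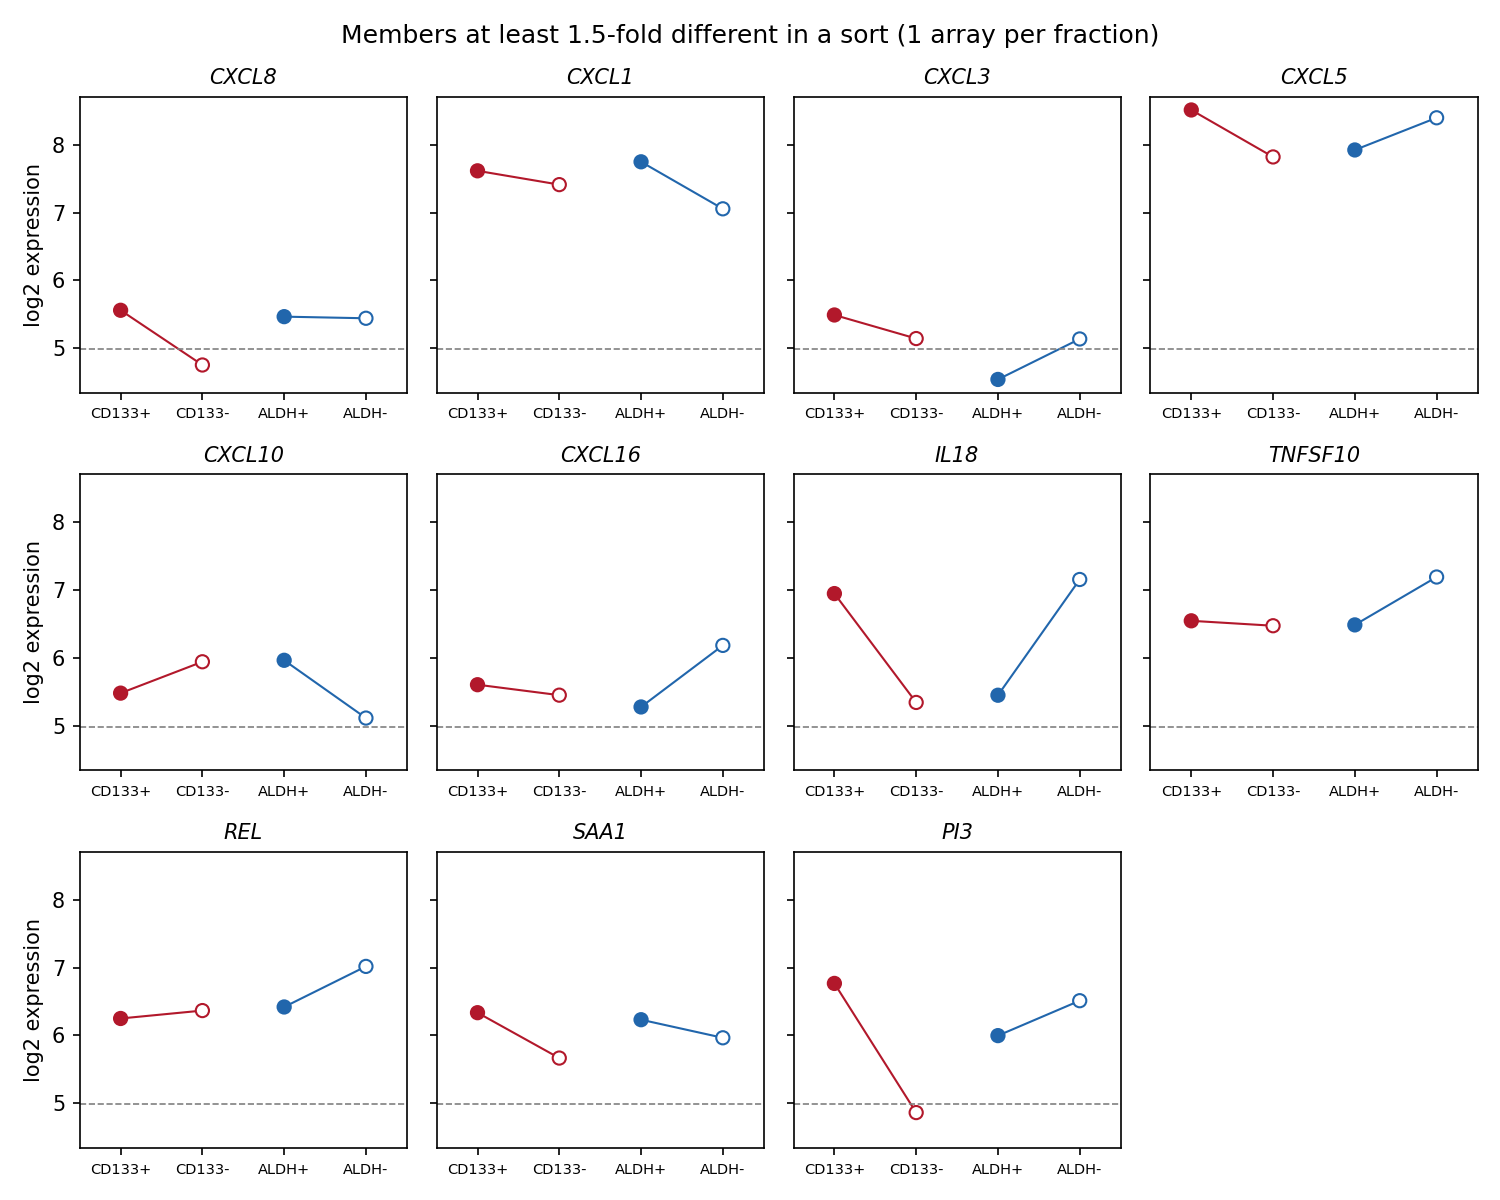
Log2 expression of the 11 members that were at least 1.5-fold different in a sort, 1 point per array, with the positive fraction (filled) left of the negative fraction (open) and the CD133 sort (red) left of the ALDH sort (blue); the dashed line is the floor of 4.98. IL18 was high in CD133+ and ALDH- cells, at 6.95 and 7.16, and low on the other arrays, and PI3 was lowest in CD133- cells, at 4.86.

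IL18 encodes interleukin-18, a cytokine of the interleukin-1 family that is stored as a precursor, cut by inflammasome caspases and made by many epithelia. It was 6.95 in CD133+ and 5.34 in CD133- cells, a difference of 1.60 or 3.04-fold. In the other sort it was 5.45 in ALDH+ and 7.16 in ALDH- cells, a difference of -1.71 or 3.26-fold lower. It ranked 24th from the top of 11591 genes in the CD133 sort and 9th from the bottom of 11879 in the ALDH sort. All 4 arrays lay above the floor, and IL18 was the only member above the floor that passed 1.5-fold in both sorts. Of 11293 genes that reached the floor in each sort, 139 (1.23%) passed 1.5-fold in both with the same signs as IL18, PROM1 among them. A further 18 passed with the reverse signs, and 29 with the same sign in both sorts.

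PI3 encodes elafin, a secreted inhibitor of neutrophil elastase that epithelia release under inflammatory stimuli. Its level was 6.77 in CD133+ and 4.86 in CD133- cells, 3.74-fold higher. The CD133- value lay below the floor, and against the floor the difference was 1.78. In ALDH+ cells PI3 was 5.996 and in ALDH- cells 6.51, short of 1.5-fold. CD133- cells thus stood apart from the 3 other fractions, and the difference of 1.90 ranked 14th of 11591 genes.

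The neutrophil chemokines were each higher in CD133+ than in CD133- cells, in 6 of 6 genes and with a median of 0.28. Of the 6, 5 were above the floor, where 4970 of 11591 genes in all were higher. Because CXCL1, CXCL2 and CXCL3 may share probe signal, the 6 are not fully separate observations. CXCL8, or interleukin-8, was 5.56 in CD133+ and 4.75 in CD133- cells, 1.75-fold higher, but the CD133- value lay below the floor and the difference against it was 0.57. CXCL5, also called ENA-78, was 8.51 in CD133+ and 7.82 in CD133- cells, 1.62-fold higher and well above the floor. The others differed by 0.35 (CXCL3), 0.20 (CXCL1), 0.14 (CXCL6) and 0.12 (CXCL2), inside the middle 95% of all genes above the floor, which ran from -0.54 to 0.60. CXCL6 was below the floor on every array. All 6 differences stayed above 0 after centring, a second quantile normalization and loess; with dim values set to the floor CXCL6 came to 0.

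In the ALDH sort the same 6 genes divided, 3 higher and 3 lower. Of the 5 above the floor 2 were higher, where 5767 of 11879 genes in all were higher, so the division is near the background. CXCL1, or GRO-alpha, was 7.75 in ALDH+ and 7.05 in ALDH- cells, 1.62-fold higher. CXCL3 was 4.54 in ALDH+ and 5.14 in ALDH- cells, 1.51-fold lower, and only -0.15 against the floor. CXCL5 (-0.47) and CXCL2 (-0.32) were also lower in ALDH+ cells, while CXCL6 was 0.50 with both arrays below the floor. CXCL8 was 5.47 in ALDH+ and 5.44 in ALDH- cells, a difference of 0.02 that turned to -0.0004 after a second quantile normalization and -0.02 after loess. Along the chromosome the 3 genes on the plus strand, CXCL8, CXCL6 and CXCL1, come first and CXCL5, CXCL3 and CXCL2, on the minus strand, follow. These 3 were lower in ALDH+ cells, while CXCL10, further along and also on the minus strand, was 0.85. Any part of strand or position was not tested. CXCL1, CXCL2 and CXCL3 are close copies of each other, and their probes may share signal.

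**Figure D2:**
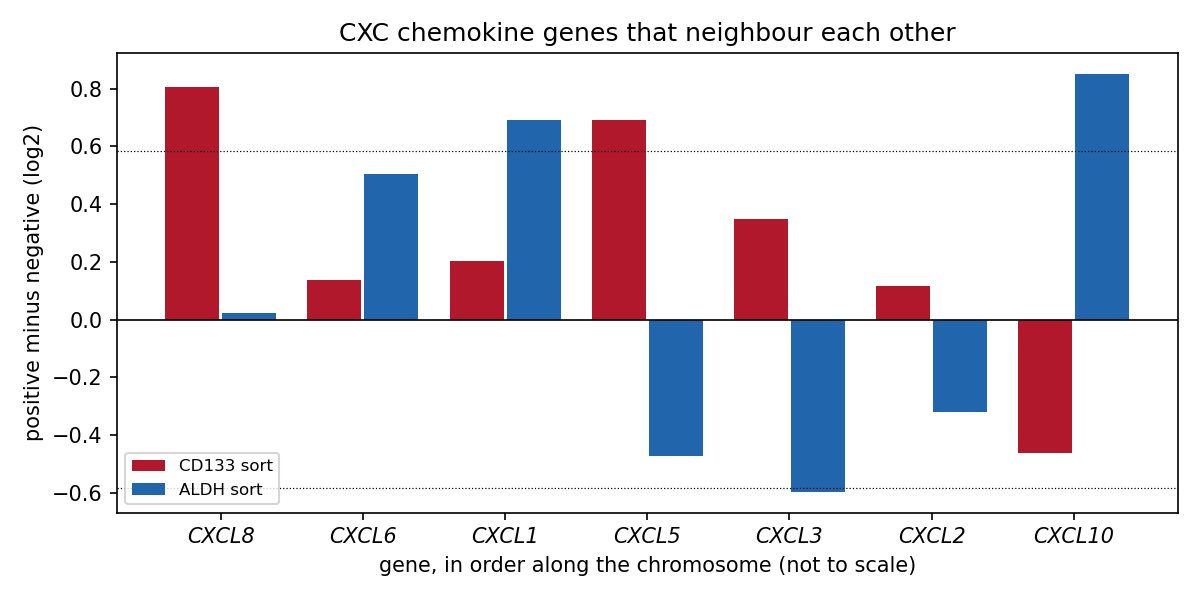
Difference in log2 level, positive minus negative fraction, of 7 CXC chemokine genes in their order along chromosome 4 (not to scale), red bars for the CD133 sort and blue bars for the ALDH sort; dotted lines mark 1.5-fold. The red bars are above 0 for every gene but CXCL10, and the blue bars are above 0 for CXCL8, CXCL6, CXCL1 and CXCL10 and below 0 for CXCL5, CXCL3 and CXCL2.

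CXCL10, an interferon-induced chemokine that attracts T cells through CXCR3, went the other way from the neutrophil chemokines in the CD133 sort. It was 5.48 in CD133+ and 5.94 in CD133- cells, a difference of -0.46. In the ALDH sort it was 5.96 in ALDH+ and 5.11 in ALDH- cells, 1.80-fold higher and the highest of the members there. CXCL16, a chemokine made as a membrane protein that binds CXCR6, was 5.28 in ALDH+ and 6.18 in ALDH- cells, 1.88-fold lower, and 5.60 in CD133+ and 5.45 in CD133- cells. CXCL16 was thus highest in ALDH- cells, and its remaining arrays lay between 5.28 and 5.60.

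The CC chemokines in the list differed by less than 1.5-fold or were dim. CCL20, the ligand of CCR6, was 8.59 in CD133+ and 8.30 in CD133- cells, and 8.71 in ALDH+ and 8.72 in ALDH- cells. CCL2, which draws monocytes, reached 3.96 at most and CCL5, a T cell attractant, 4.41, so both were below the floor on all arrays. Their differences, 0.22 and 0.50 in the CD133 sort and 0.80 and 0.19 in the ALDH sort, are those of dim probes.

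Apart from IL18, interleukins of the list were mostly dim. IL1A, IL1B, IL6 and the interleukin-1 receptor antagonist IL1RN were below the floor on every array. IL6, the main inducer of the acute phase, lay between 3.20 and 3.69, IL1A between 2.66 and 2.90, and IL1RN between 3.59 and 4.22. IL1B, the inflammasome-processed relative of IL18, had the same signs as IL18, 0.66 in the CD133 sort and, in the other, -0.63, at levels of 4.27 in CD133+ and 3.61 in CD133- cells and of 4.17 in ALDH+ and 4.80 in ALDH- cells. IL32, a cytokine induced by TNF in epithelial cells, was 7.57 in CD133+ and 7.03 in CD133- cells (0.53), and 7.05 in ALDH+ and 7.41 in ALDH- cells (-0.36). IL11, a relative of interleukin-6, was higher in both positive fractions, by 0.29 and 0.53, without reaching 1.5-fold.

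The receptors differed little. IL6ST, the signalling chain gp130 shared by the interleukin-6 family, was 8.36 in CD133+ and 8.58 in CD133- cells, and 8.32 in ALDH+ and 8.64 in ALDH- cells. IL6R, the ligand-binding chain, differed by -0.19 and -0.14, and IL1R1, the interleukin-1 receptor, by -0.05 and 0.19. Every receptor value in both sorts lay inside the middle 95% of genes.

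Among the TNF family ligands, TNFSF10 was the 1 member past 1.5-fold. It encodes TRAIL, a ligand that can trigger apoptosis through death receptors. TNFSF10 was 6.49 in ALDH+ and 7.19 in ALDH- cells, 1.63-fold lower, and 6.55 in CD133+ and 6.47 in CD133- cells. As with CXCL16, ALDH- cells were high and the 3 other fractions were close together. LTB, lymphotoxin beta, was higher in both positive fractions, by 0.30 and 0.39 on its brightest probe; its 4 probes ran from -0.03 to 0.30 in the CD133 sort and from 0.39 to 0.65 in the ALDH sort. TNF itself was below the floor on all arrays, and its 3 probes carried the same values.

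The NF-kB subunits showed no common direction. RELA, the main activating subunit, was 7.53 in CD133+ and 7.58 in CD133- cells, and 7.68 in ALDH+ and 7.53 in ALDH- cells. REL was 6.42 in ALDH+ and 7.02 in ALDH- cells, 1.51-fold lower, and differed by -0.12 in the CD133 sort. Its ALDH difference did not reach 1.5-fold with a second quantile normalization (-0.55) or loess (-0.55). NFKB1, the precursor of p50, was lower in both positive fractions, at -0.37 and -0.51. NFKB2, the precursor of p52, differed by 0.09 and -0.08, and RELB, its partner, by 0.18 and 0.11.

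The feedback genes NFKBIA and TNFAIP3, which NF-kB switches on to end its own signal, and the target gene TNFAIP2 stayed within 1.5-fold. NFKBIA, the inhibitor IkB-alpha, was 7.90 in CD133+ and 7.94 in CD133- cells, and 7.84 in ALDH+ and 7.58 in ALDH- cells. TNFAIP3, the deubiquitinase A20, was 6.91 in ALDH+ and 7.47 in ALDH- cells, a difference of -0.56, and -0.20 in the CD133 sort. TNFAIP2 differed by -0.05 and 0.08. In the CD133 sort all 3 were lower, but NFKBIA turned to 0.01 after centring on the median of all genes, and TNFAIP2 also turned after loess, so no direction can be read from either. NFKBIA and CXCL8, both with a match of the motif shown above, differed by -0.04 and 0.81 in the CD133 sort.

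Of the acute-phase and defence products, SAA1 was past 1.5-fold next to PI3. SAA1, a serum amyloid A protein of the acute phase, was 6.33 in CD133+ and 5.67 in CD133- cells, 1.59-fold higher, and 6.23 in ALDH+ and 5.96 in ALDH- cells. It has a close paralog, SAA2, so its probe may read both. CRP, C-reactive protein, was below the floor on all arrays, between 3.36 and 3.87. LCN2, an iron-sequestering protein of innate defence, was higher in both positive fractions by 0.11 and 0.17. SOD2, the mitochondrial superoxide dismutase and a classical NF-kB target, differed by -0.13 and 0.29.

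**Figure D3:**
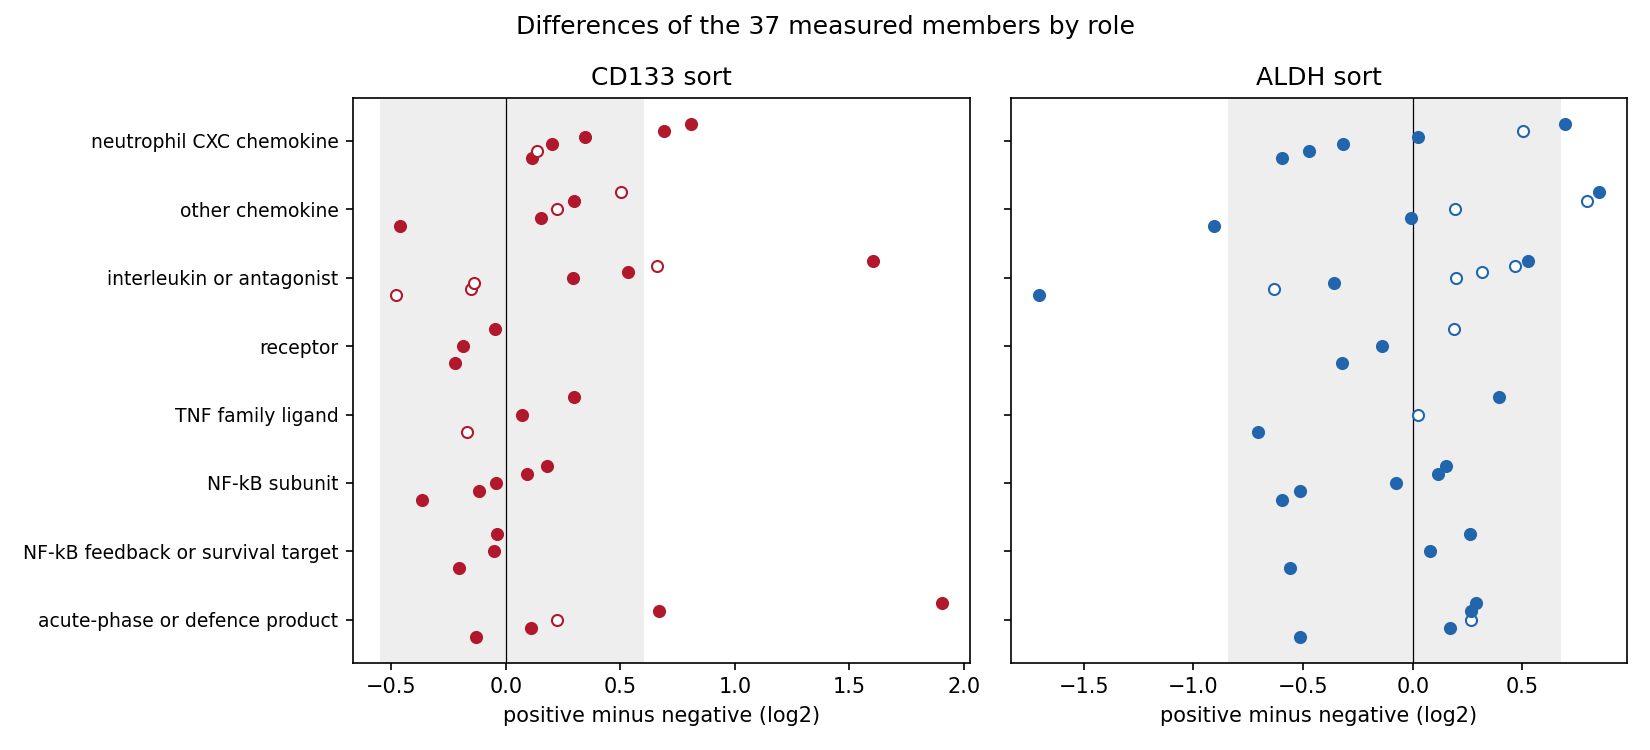
Difference in log2 level, positive minus negative fraction, of the 37 measured members by role, in the CD133 sort (left) and the ALDH sort (right); filled points are above the floor in that sort, open points below it, and the grey band is the middle 95% of all genes above the floor (-0.54 to 0.60 and -0.84 to 0.67). Outside the band lie 5 members above the floor at left and 4 at right.

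The members were then compared across both sorts, which share no array. Among the 27 members that reached the floor in each sort, 10 had a positive CD133 and a negative ALDH difference, 5 the reverse, 7 had positive differences in both sorts and 5 negative ones. Opposite signs were therefore seen in 15 of 27 (55.6%), against 48.5% of 11293 genes. No member of the 27 was past 1.5-fold in the same direction in both sorts. Over all 37 measured members, the CD133- array was the lowest of the 4 for 15 genes, the ALDH- array for 11, the CD133+ array for 7 and the ALDH+ array for 4. Of the 37, 9 were below the floor on all 4 arrays. The same count was not made over all genes, so these numbers have no background. The CD133- array also had the lowest median of all probes, 4.92 against 4.98 to 5.04 on the others.

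**Figure D4:**
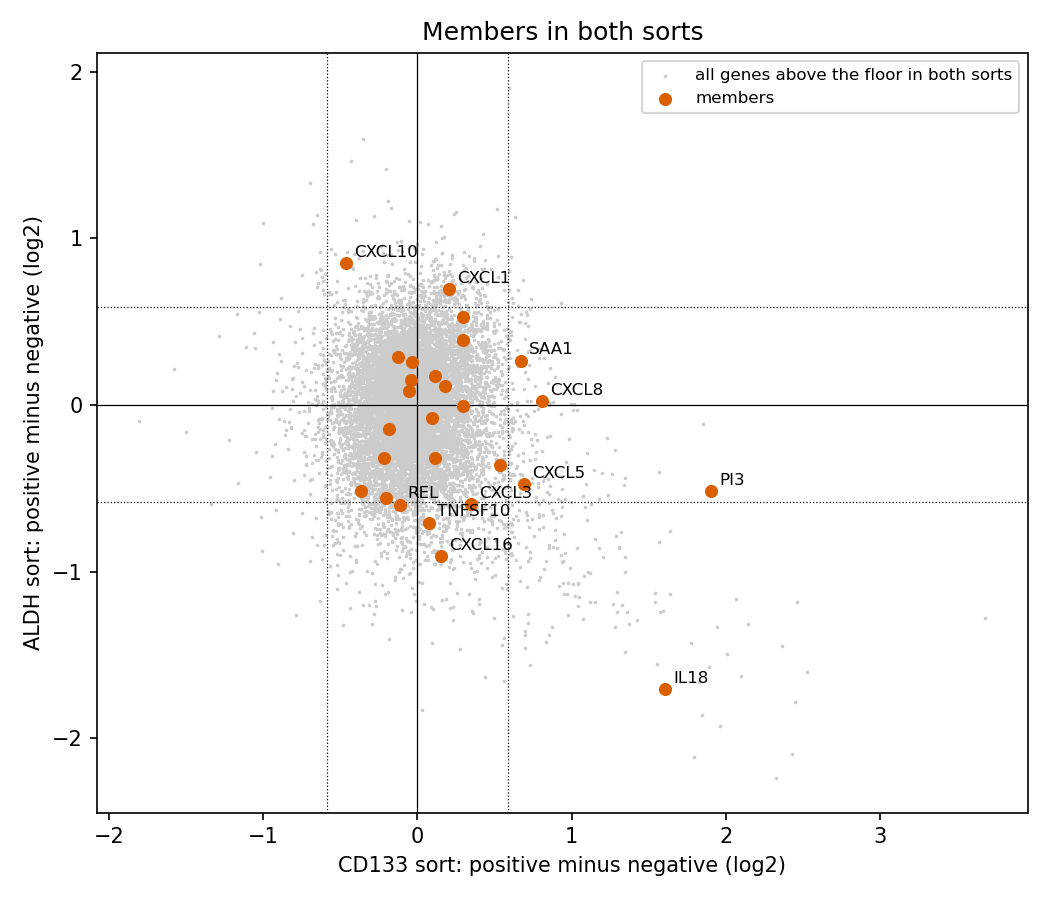
Each member above the floor in both sorts (orange) by its log2 difference between the CD133 fractions (x axis) and the ALDH fractions (y axis), positive minus negative fraction, over all 11293 genes above the floor in both (grey); dotted lines mark 1.5-fold. IL18 lies alone among the members at 1.60 and -1.71, PI3 at 1.90 and -0.51, and CXCL10 at -0.46 and 0.85.

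The genes that carry NF-kB signals from receptor to nucleus were read next. Of 22 such genes above the floor in the CD133 sort, 0 were past 1.5-fold in either direction, where 2.74% of all genes were higher and 1.89% lower, with a median of -0.01. Of 23 in the ALDH sort, 0 were higher and 2 lower, the ubiquitin ligase TRAF6 (-0.63) and the linear-chain deubiquitinase OTULIN (-0.64), with a median of -0.01. In that sort 4.15% of all genes were higher and 6.6% lower, so counts this small are near the background. The kinase subunit IKBKB differed by 0.11 and 0.03. Among 7 Toll-like and cytokine receptors above the floor in the CD133 sort none passed 1.5-fold. Of 9 in the ALDH sort 1 was lower: TLR4, the receptor of bacterial lipopolysaccharide, was 4.20 in ALDH+ and 5.21 in ALDH- cells, but -0.22 against the floor. The medians of these receptors were 0.07 and -0.19.

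Around interleukin-18 itself, the inflammatory caspase gene CASP5 had the same signs as IL18. It was 4.80 in CD133+ and 3.51 in CD133- cells, and 4.21 in ALDH+ and 5.56 in ALDH- cells, differences of 1.29 and -1.35. Both CD133 arrays lay below the floor, and the ALDH difference was -0.57 against it. CASP1, the caspase that classically cuts the precursor, was below the floor throughout, at 3.71 or less. The inflammasome adaptor PYCARD (0.80) and the pore protein GSDMD (0.74) were at least 1.5-fold higher in ALDH+ cells, the opposite direction to IL18, and differed by 0.17 and -0.08 in the CD133 sort. In all, 0 of 5 genes of this group above the floor were past 1.5-fold in the CD133 sort. Of 6 in the ALDH sort, 2 were higher and 1 lower. The medians were 0.17 and -0.16. Of all genes above the floor, 2.74% were higher and 1.89% lower in the CD133 sort, and 4.15% and 6.6% in the ALDH sort. With so few genes in the group these counts are a description only. CASP5, the 1 lower, reached the floor only in ALDH- cells.

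Of the interleukin-6 family signalling genes, 0 of 14 above the floor were past 1.5-fold in the CD133 sort. Of all genes 2.74% were higher there and 1.89% lower. In the ALDH sort 1 of 16 was higher, the STAT-induced inhibitor CISH (0.66), and 2 were lower, LIFR and SOCS2. Of all genes 4.15% were higher in that sort and 6.6% lower, so counts this small are near the background. LIFR, the receptor chain that pairs with gp130, was 6.60 in ALDH+ and 7.61 in ALDH- cells, and SOCS2 differed by -0.62, or -0.05 against the floor. STAT3 differed by 0.24 and -0.27 and its feedback inhibitor SOCS3 by 0.23 and 0.28. The family had medians of 0.11 and 0.07, where all genes above the floor had -0.04 and -0.01. Of 4 measured TRAIL receptors, the differences ran from -0.04 to 0.28 in the CD133 sort and from -0.32 to -0.10 in the ALDH sort. None passed 1.5-fold. TNFRSF11B and TNFRSF10A reached the floor only in ALDH- cells, and differed there by -0.13 and -0.09 against it. Of 13 measured chemokine receptors 3 were above the floor in each sort and none of these passed 1.5-fold.

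Many of these cytokines are also made by leukocytes, and their markers were read on the same arrays. Of 12 measured leukocyte markers, 4 reached the floor on any array, and the summed log2 level of the 12 was 55.7 in CD133+ and 55.6 in CD133- cells, and 58.1 in ALDH+ and 55.2 in ALDH- cells. LYZ, lysozyme, differed by -0.69 in the CD133 sort and by 1.33 in the ALDH sort, the opposite signs to IL18, and CD68 was lower in ALDH+ cells (-0.77). Of 5 endothelial markers 0 were above the floor in the CD133 sort but 2 in the ALDH sort, where PECAM1 (-0.93) and CDH5 (-0.67) were lower in ALDH+ cells. Against the floor these differences were -0.48 and -0.38. Of 8 fibroblast and stellate cell markers 4 were above the floor in each sort, and none of these passed 1.5-fold. Their part in the members' values was not tested.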

How the data were processed

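Total RNA of 4 sorted Huh7 fractions was biotin-labelled and hybridised to 1 array each, per the labels' protocols. The authors deposited log2 levels made with RMA, per the submitters' processing notes. Which program made them, and on which genome build, is not given in the sources used here. Nothing says whether the arrays came from separate cultures. Their span from 0.556 to 13.5 is that of a log2 scale. RMA forces arrays towards one distribution and compresses dim probes. Precision is limited by the number of arrays.

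Of 28869 probes, 19310 had exactly 1 symbol in the platform annotation, and the probe with the highest mean stood for each of 18377 genes. All 37 measured members kept their symbol through their gene identifier in RefSeq GRCh38.p14. Differences were positive minus negative, with a floor at the median of all values and a threshold of 1.5-fold. No test was made, since each group had 1 array. Members and lists were chosen with earlier results of these data known. All members are named, and so are genes of the other lists at 1.5-fold above the floor (at most 4 a list and sort) and further genes that were picked once their values were known. The alternatives tried were a 2-fold threshold, other floors, the mean over probes, centring, a second quantile normalization and loess (span 0.4). The counting was tested on simulated data. Python 3.11.15, pandas 2.3.3 and statsmodels 0.14.6 were used.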

Additional observations from a re-analysis of the deposited data

Results flagged for a closer look

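IL18 was past 1.5-fold in opposite directions in the 2 sorts: its log2 difference was 1.60 between CD133+ and CD133- cells and -1.71 between ALDH+ and ALDH- cells. It was flagged because the single comparison of each sort went the opposite way. The difference between the sorts was not tested, since each fraction had 1 array, and the sorts used different markers. IL18 was the 1 member above the floor with this pattern, which 139 of 11293 genes shared in this order of directions. Among the same genes, 18 passed 1.5-fold in both sorts with the reverse signs and 29 with the same sign in both. The order seen for IL18 was thus the most frequent of these.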

How the results depend on the processing

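No paired analysis was possible because each group has 1 array and the result comes from no test. In the CD133 sort the members at 1.5-fold higher numbered 5, and none was lower; 2 were higher at 2-fold, and 3 with a floor at the 75th percentile (6.48). In the ALDH sort 2 were higher and 5 lower at 1.5-fold; at 2-fold 0 were higher and 1 lower, and with the floor at the 75th percentile 1 was higher and 3 lower. These alternatives count fewer genes by construction. The ALDH median of -0.08 moved to 0.081 with no floor and to -0.32 with the floor at the 75th percentile, as other members were counted. No member past 1.5-fold turned its sign under centring, probe averaging, a second quantile normalization, loess or raising dim values to the floor. Under these settings CXCL8 was short of 1.5-fold with dim values raised, CXCL3 with dim values raised and with centring (-0.58), and REL with the second quantile normalization and loess; IL32 reached it in the CD133 sort with loess (0.60). The causes were not tested. Levels at or below the floor limit what the differences of IL1B, CCL2, CXCL6 and CASP5 can show.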

Other observations

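Other members of the same gene families, taken by symbol after the data were seen, were mostly dim. Of 9 other CXC chemokine genes 2 were above the floor in each sort. In the ALDH sort both were at least 1.5-fold higher in ALDH+ cells, where 4.15% of all genes were. CXCL14 was 5.70 in ALDH+ and 4.91 in ALDH- cells, or 0.71 higher against the floor. CXCL12, the ligand of CXCR4, was 5.25 in ALDH+ and 4.57 in ALDH- cells, but only 0.26 higher against the floor. Of 20 other CC, XC and CX3C chemokine genes 1 was above the floor among the CD133 fractions and 3 among the ALDH fractions. There CCL21 (0.67) was the 1 of the 3 at least 1.5-fold higher, against 4.15% of all genes, but was 0.45 against the floor. Of 33 other interleukin genes, IL34, a ligand of the macrophage growth factor receptor, passed 1.5-fold. It was 5.63 in CD133+ and 4.79 in CD133- cells, or 0.65 against the floor, and differed by 0.13 in the ALDH sort. Of 12 other TNF superfamily ligands none above the floor passed 1.5-fold in either sort.

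PI3 belongs to the WFDC family of protease inhibitors, of which 13 further genes were measured. SLPI, the secretory leukocyte protease inhibitor and like PI3 an inhibitor of neutrophil elastase, was the 1 gene of these past 1.5-fold above the floor. It was 6.08 in CD133+ and 5.20 in CD133- cells, 1.84-fold higher, and 5.31 in ALDH+ and 6.16 in ALDH- cells, 1.81-fold lower. These are the signs of IL18 and of PI3, although PI3 was short of 1.5-fold in the ALDH sort.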
